A study of Rattus norvegicus with 24 samples.

Results

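Cholesterol synthesis and its carbon supply were followed through 8 genes in the developing brain of rat fetuses whose mothers had received 1 of 3 treatments or saline. They were 7 sterol genes, Hmgcs1, Idi1, Fdps, Fdft1, Sqle, Cyp51 and Insig1, together with Aacs. All 8 of 8 were found by symbol among the 17420 genes of the deposited table. The set was selected on the log2 TPM differences between the groups of these same pups, so the group differences of the 8 genes are given as a description and were not tested. Fetal neocortex and hippocampus were dissected together on embryonic day 18 from Sprague-Dawley rats and RNA was sequenced from each pup. The groups were Saline, Low Protein, MAM and Poly I:C, with 6 pups each, 3 from each of 2 litters, for 24 pups in 8 litters.

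Saline dams were injected on gestational day 17. MAM dams received 22 mg/kg methylazoxymethanol acetate, an alkylating agent that kills dividing cells, and Poly I:C dams received 7.5 mg/kg of polyinosine:cytosine, a mimic of viral double-stranded RNA that activates the maternal immune system. Both drugs were given i.p. on gestational day 17, and tissue was taken 18 hours after the injection. Low Protein dams ate a 6.1% protein diet from gestational day 11 until day 18, and control rats ate an isocaloric diet with 20.3% protein. Whether the Low Protein dams were also injected is not given in the sources used here. Each treatment was given to a dam and not to a pup, so 2 dams stand behind each group, and differences between dams and between treatments cannot be fully told apart.

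Cholesterol is built from acetyl-CoA by a long series of enzymes, and the brain makes its own because plasma cholesterol hardly crosses the blood-brain barrier. The transcription factor SREBP2 (gene Srebf2) switches the whole series on when the membrane of the endoplasmic reticulum is short of sterol. INSIG1 holds SREBP2 back in that membrane when sterol is plentiful, and Insig1 is itself an SREBP target, so its RNA is a common readout of SREBP activity. Aacs encodes acetoacetyl-CoA synthetase, a cytosolic enzyme that feeds the ketone body acetoacetate directly into sterol and fatty acid synthesis and is known as a supplier of lipid carbon in the developing brain.

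Depth was estimated at 25.1 to 64.8 megareads per pup, with group medians of 34.0 in Saline, 42.6 in MAM, 44.3 in Low Protein pups and 30.8 in Poly I:C. At that depth the lowest pup held an estimated 1277 reads of Insig1 and 1413 of Aacs, a counting error of 2.8% and 2.66%. The labelled tissue showed its markers in every group: 7 of 8 cortical and hippocampal genes were in the table, none at 0 in all pups, and their summed level ran from 158 to 305 across all pups. Markers of ganglionic eminence, choroid plexus, meninges, microglia and blood were also present, and the 5 choroid plexus genes summed to between 32.5 and 244. These are bulk samples, in which fewer cells of a type and less RNA per cell cannot be told apart.

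The mean TPM of each of the 7 sterol genes was lowest in MAM, and that of Aacs was lowest in Low Protein. On the log2 scale Insig1 was an exception, at -0.33 in Low Protein and -0.31 in MAM against Saline. The mean log2 level of the 7 genes, set to 0 in Saline, was 0 ± 0.103 (SD, n = 6) there and -0.06 ± 0.098 in Poly I:C. It was -0.18 ± 0.235 in Low Protein and -0.27 ± 0.0581 in MAM. Saline and Poly I:C, neighbours in that order, overlapped over most of their range, from -0.11 to 0.13 against -0.19 to 0.08. Low Protein had the widest spread, from -0.46 to 0.13, and covered the range of all other groups. The 6 MAM pups lay between -0.34 and -0.19, below every Saline pup.

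**Figure D1:**
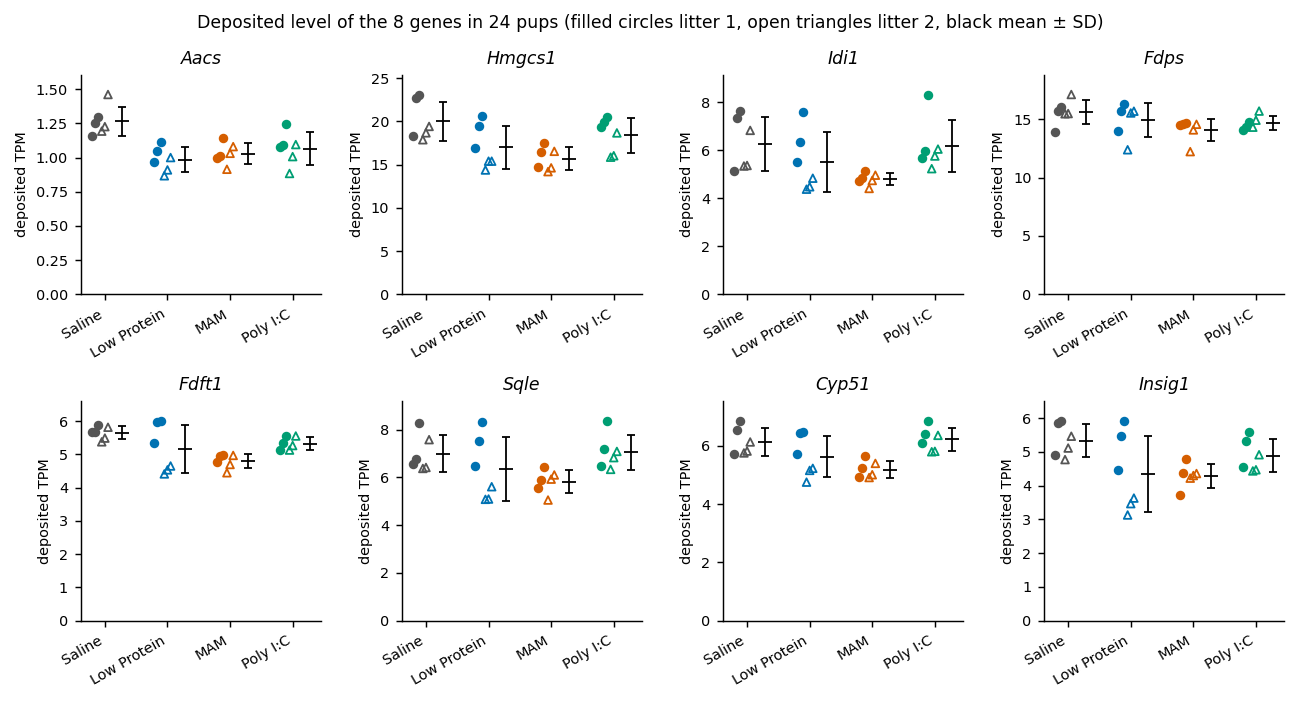
Deposited TPM (vertical axes, from 0) of the 8 genes in the 24 pups by group, with filled circles for litter 1, open triangles for litter 2, and black bars for the mean ± SD of 6 pups. Aacs is below all Saline pups in the 6 Low Protein and the 6 MAM pups, and the open triangles of Low Protein lie below its filled circles for Hmgcs1, Idi1, Fdft1, Sqle, Cyp51 and Insig1.

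Aacs stood at 1.16 to 1.46 (median 1.24, deposited TPM) in Saline pups. MAM pups ran from 0.914 to 1.14 (median 1.02), Low Protein pups from 0.867 to 1.117 (median 0.983) and Poly I:C pups from 0.884 to 1.24 (median 1.084). The Low Protein and MAM pups did not overlap the Saline pups, and 5 of 6 Poly I:C pups lay below the lowest Saline pup. The log2 difference from Saline was -0.36 in Low Protein pups, -0.30 with MAM and -0.25 with Poly I:C (SE 0.0772 for each). MAM and Poly I:C differed by -0.05, less than that SE. Aacs was the only one of the 8 whose mean was under 1 in a group (0.985 in Low Protein). It was therefore outside the limit used for the other 7, and its SE comes from the fit of genes with a mean above 0.1.

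Hmgcs1 encodes the cytosolic synthase that makes HMG-CoA, a precursor of mevalonate. Its values were 17.9 to 23.1 (median 19.05) in Saline, 14.2 to 17.5 (median 15.6) in MAM, 14.4 to 20.6 (median 16.2) in Low Protein pups and 15.9 to 20.55 (median 19.0) in Poly I:C. All 6 MAM pups were below all 6 Saline pups, whereas 4 Low Protein and 2 Poly I:C pups were. The log2 differences from Saline were -0.35 in MAM, -0.24 in Low Protein pups and -0.12 in Poly I:C (SE 0.0921).

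Idi1, the isomerase that makes the isoprene unit used for chain building, had the widest spread of the 8 among Saline pups, 5.13 to 7.62 (median 6.1, CV 17.8%). MAM pups stayed within 4.41 to 5.14 (median 4.78), and 5 of 6 were under the lowest Saline pup. Low Protein pups ran from 4.38 to 7.59 (median 5.17) and Poly I:C pups from 5.23 to 8.32 (median 5.87). The MAM difference from Saline was -0.37, with -0.19 in Low Protein pups and -0.02 in Poly I:C (SE 0.128). MAM was below Poly I:C in every pup, by a log2 difference of -0.35.

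Fdps, the synthase that makes farnesyl diphosphate at the branch point between sterols and prenylated products, had the smallest differences from Saline of the 8 in MAM and Low Protein. Rodent genomes hold processed copies of Fdps, and the Partek E/M tool divides reads that match several transcripts by estimate. Whether this affected the level of Fdps, or of any other gene among the 8, was not tested. Saline pups had 13.9 to 17.1 (median 15.6), MAM pups 12.2 to 14.7 (median 14.5), Low Protein pups 12.4 to 16.3 (median 15.6) and Poly I:C pups 14.1 to 15.7 (median 14.55). The groups overlapped throughout, with 1 Low Protein pup, 1 MAM pup and 0 Poly I:C pups below the lowest Saline pup. The largest of its 3 differences from Saline was -0.15 in MAM (SE 0.0632).

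Fdft1, squalene synthase, commits farnesyl diphosphate to sterols. It had the narrowest spread of the 8 among Saline pups, 5.38 to 5.88 (median 5.68, CV 3.39%). MAM pups were all lower, at 4.45 to 4.97 (median 4.86), and they were also below all Poly I:C pups, at 5.13 to 5.55 (median 5.3). Low Protein pups ran from 4.41 to 6.01 (median 4.99), with pups on either side of the Saline range. The log2 differences from Saline were -0.24 in MAM, -0.15 in Low Protein pups and -0.09 in Poly I:C (SE 0.0655).

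Sqle encodes squalene epoxidase, a later control point of the series. Saline pups had 6.37 to 8.27 (median 6.67) and MAM pups 5.05 to 6.42 (median 5.9), with 5 of 6 MAM pups below the lowest Saline pup. Low Protein pups ran from 5.08 to 8.33 (median 6.04) and Poly I:C pups from 6.33 to 8.37 (median 6.96). The difference from Saline was -0.26 in MAM, -0.16 in Low Protein pups and 0.01 in Poly I:C (SE 0.105).

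Cyp51, the demethylase that acts on lanosterol, lay at 5.7 to 6.86 (median 5.97) in Saline and 4.91 to 5.65 (median 5.12) in MAM. No MAM pup reached the lowest Saline pup or the lowest Poly I:C pup, and Poly I:C ran from 5.79 to 6.84 (median 6.23). Low Protein pups ran from 4.75 to 6.46 (median 5.46). The log2 difference from Saline was -0.24 in MAM, -0.13 in Low Protein pups and 0.02 in Poly I:C (SE 0.0707).

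Insig1, the only regulator among the 8, stood at 4.77 to 5.91 (median 5.29) in Saline. MAM pups ran from 3.71 to 4.79 (median 4.33), Low Protein pups from 3.13 to 5.92 (median 4.05) and Poly I:C pups from 4.43 to 5.59 (median 4.74). The Low Protein pups were spread over a CV of 26.2%, against 8.13% in MAM. The log2 differences from Saline were -0.31 in MAM, -0.33 in Low Protein pups and -0.13 in Poly I:C (SE 0.119).

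**Figure D2:**
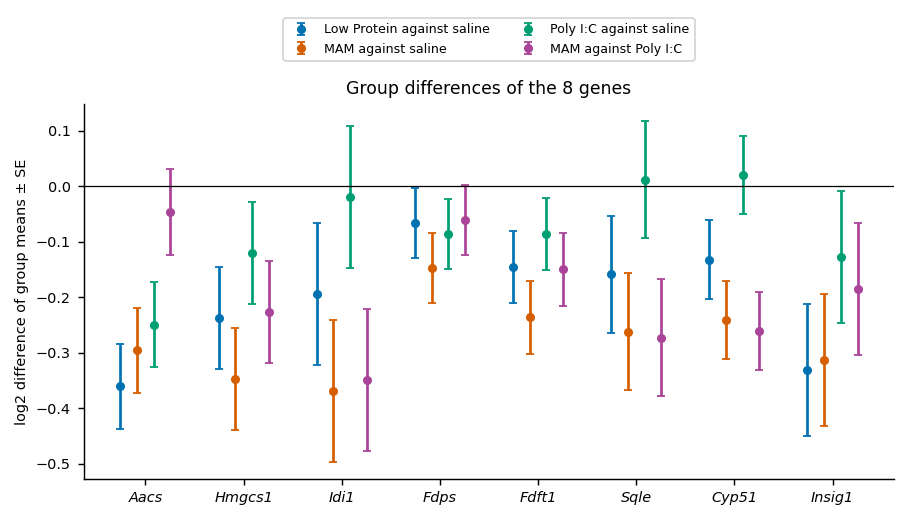
Log2 difference of group means (vertical axis) for each of the 8 genes (horizontal axis) in the 4 comparisons, with bars of 1 SE from the fit across all genes. Every Low Protein and MAM point against Saline is below 0, and the Poly I:C points of Sqle and Cyp51 are at 0.01 and 0.02.

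The 3 comparisons with Saline share the same 6 Saline pups and are set side by side. All 8 genes had a log2 difference below 0 in MAM (median -0.28) and Low Protein (median -0.18), as had 6 of 8 in Poly I:C (median -0.09). MAM against Poly I:C, which shares no Saline pup, was below 0 for all 8, with a median of -0.21. Over all 9713 genes with a mean above 0.1 in each group, the medians were -0.06 for MAM, -0.01 for Low Protein, 0.01 for Poly I:C and -0.06 for MAM against Poly I:C. Of those genes, 71.5% were below 0 in MAM, 53.9% in Low Protein, 46.7% in Poly I:C and 65.3% in MAM against Poly I:C. Every pup was lower for 1 of 8 genes in Low Protein (Aacs) and for 4 of 8 in MAM (Aacs, Hmgcs1, Fdft1 and Cyp51), where 0.515% and 0.638% of all genes were. In Poly I:C 0 of 8 were, beside 0.288% of all genes. In MAM against Poly I:C, 3 of 8 were (Fdft1, Idi1 and Cyp51), beside 3.51% of all genes.

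The Low Protein litters stood apart. In litter 1 the 7 sterol genes averaged 0.01 ± 0.149 (SD, n = 3) on the log2 scale against the Saline mean, and in litter 2 they averaged -0.37 ± 0.0793. Every pup of litter 1 was above every pup of litter 2 for 6 of the 8 genes, Hmgcs1, Idi1, Fdft1, Sqle, Cyp51 and Insig1, as it was for 17.6% of all genes. Insig1 differed most, with 4.47, 5.46 and 5.92 in litter 1 and 3.13, 3.47 and 3.63 in litter 2. Sqle had 6.48, 7.52 and 8.33 in litter 1 and 5.08, 5.09 and 5.61 in litter 2. The litter 1 means of the 7 sterol genes lay between -0.07 and 0.09 of Saline, and the litter 2 means between -0.64 (Insig1) and -0.11 (Fdps).

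Aacs did not follow that split as far. It was at -0.27 ± 0.105 in Low Protein litter 1 and at -0.45 ± 0.105 in litter 2, against Saline, and the pups of both litters were below all Saline pups. Over the 8 genes, 6 of 24 values in Low Protein litter 1 lay below the lowest Saline pup of the same gene, and 22 of 24 in litter 2. The MAM litters were closer to each other, with 18 of 24 values in litter 1 and 22 of 24 in litter 2. Their sterol means were -0.24 and -0.30 on the log2 scale, and the litters overlapped for all 8 genes. In Poly I:C the counts were 5 of 24 and 10 of 24. The share of such values over all genes was not computed, so these counts are a description only. Each set of 24 values comes from 3 pups and from genes that mostly varied together, so the values are not separate observations. In Poly I:C every pup of litter 1 was above every pup of litter 2 for 1 of 8 genes, Hmgcs1, beside 11.1% of all genes. With Low Protein litter 2 left out, the Low Protein median of the 8 genes was -0.0018, and with litter 1 left out it was -0.40.

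**Figure D3:**
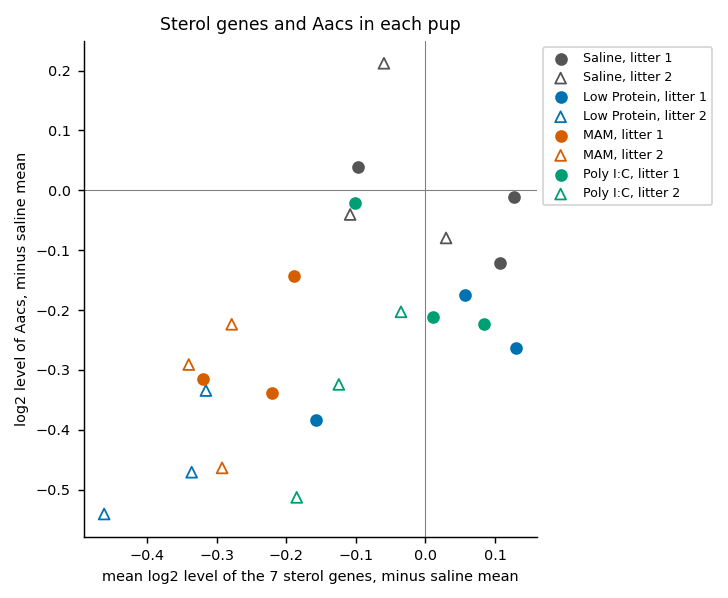
Mean log2 level of the 7 sterol genes (horizontal axis) against log2 level of Aacs (vertical axis) in each of 24 pups, both with the Saline mean set to 0, with colour for group, filled circles for litter 1 and open triangles for litter 2. Low Protein litter 1 averages 0.01 on the horizontal axis and -0.27 on the vertical one, while the 6 MAM pups lie between -0.34 and -0.19 on the horizontal axis.

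Within groups the sterol genes varied together, except Fdps. Each pup's deviation from its group mean was compared between genes over the 24 pups, which share litters and the per-pup scaling. Litter means were not removed, so the gap between the Low Protein litters described above is part of these deviations. That gap was complete for the same 6 genes that correlate most below, and r within litters was not computed. Among Hmgcs1, Idi1, Fdft1, Sqle, Cyp51 and Insig1, the 15 pairs had a Pearson r of 0.686 to 0.917 (median 0.817), highest for Insig1 with Cyp51 (Spearman rho 0.903). Fdps correlated with these 6 genes at 0.0342 to 0.296 and Aacs at 0.21 to 0.521. The r of Aacs with the mean of the 7 sterol genes was 0.43 (Spearman rho 0.362), and it was 0.303 without the 2 pups farthest from the median, Low Protein 1.3 and 2.2.

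**Figure D4:**
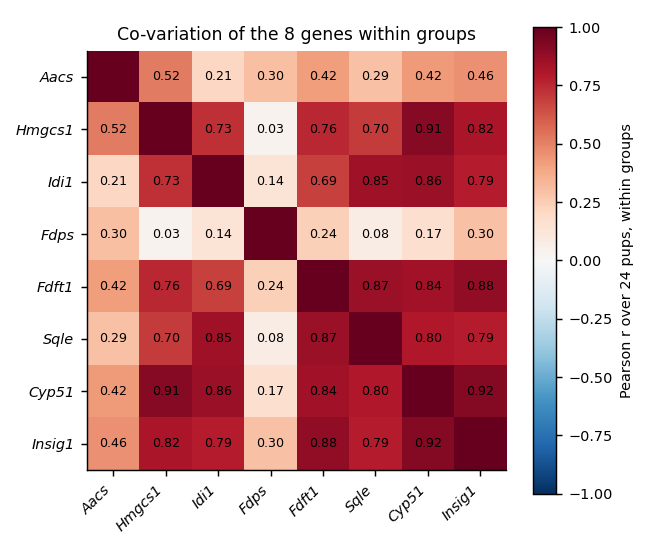
Pearson r between the 8 genes (rows and columns) over the deviations of 24 pups from their group means, on a colour scale from -1 to 1. A block of 6 genes has r of at least 0.686, while Fdps has at most 0.296 with them.

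Among 5079 genes with a mean above 1, the closest to the mean of the 7 sterol genes in the same measure were Tdg (r = 0.898), Msmo1 (0.889) and Elovl2 (0.885). Stam, Eid2b, Strbp, Ppp3r1, Ywhaz and Armcx3 were also among the 10 closest, at 0.824 down to 0.806. Msmo1, a sterol methyl oxidase acting after Cyp51, was the only sterol enzyme in those 10, and Elovl2 elongates polyunsaturated fatty acids. Of the 9 other sterol enzymes ranked, Dhcr7 stood at 45 (r = 0.761) and Sc5d at 252 (0.672). The other 6, Tm7sf2, Acat2, Pmvk, Mvd, Lss and Mvk, lay at ranks 1226 to 2290 with r of 0.402 down to 0.146. The median r of the 9 was 0.3, against 0.0946 over all genes ranked. Of the 9, 3 were among the 500 closest, beside 9.84% of all genes ranked. Closest to Aacs were Psd (0.877), Clstn3 (0.835), Fcho1 (0.824), Asic1 (0.815) and Eno2 (0.813), and none of these was among the 10 for the sterol genes.

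The other enzymes of the series, which were not among the 8, were in part lower in Low Protein and MAM. Of 13 listed, 9 had a mean above 1 in each group and were tested (limma, unadjusted p under 0.05, with no limit on the size of the difference). In Low Protein 4 of 9 were lower and 0 were higher, while 4.58% of all 5086 genes were lower. In MAM 4 of 9 were lower and 0 higher, beside 8.18% of all genes. In Poly I:C 0 of 9 were called in either direction, beside 5.7% lower among all genes. In MAM against Poly I:C 2 of 9 were lower, beside 17.1%. The median log2 differences of the 9 were -0.16 for Low Protein, -0.13 for MAM, -0.02 for Poly I:C and -0.08 for MAM against Poly I:C. This list too was drawn up with earlier results of these pups known, so its counts are no independent evidence of a direction.

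None of these calls held after Benjamini-Hochberg adjustment over all genes (limma), with adjusted p-values of 0.109 to 0.576. Adjusted calls in either direction made up 0% of genes in Poly I:C, 0.0197% in MAM, 0% in Low Protein and 3.46% in MAM against Poly I:C. The Low Protein count of 4 was 0 without Low Protein litter 2, 8 without litter 1 and 2 without Saline litter 1. The MAM count of 4 was 1 without MAM litter 2, 2 without Saline litter 1 and 2 with median-of-ratios scaling. The 2 of MAM against Poly I:C fell to 0 without MAM litter 1 and to 0 with litter means.

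Dhcr7, which carries out a last reduction to cholesterol, had 4.38 to 4.75 (median 4.55) in Saline and 3.78 to 4.31 (median 4.06) in MAM. It fell by 0.23 in Low Protein (SE 0.0599, limma adjusted p = 0.37) and by 0.17 in MAM (limma adjusted p = 0.413). All MAM pups were below all Saline pups (exact permutation p = 0.00216, the smallest that 6 against 6 pups allow). Low Protein pups ran from 3.44 to 4.386 (median 3.8), and their highest was level with the lowest Saline pup, 4.385. Low Protein litter 1 stood at -0.10 and litter 2 at -0.36, and the Low Protein call was lost without litter 2.

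Msmo1 and Sc5d, which act after Cyp51, were lower in MAM than in Saline and Poly I:C, and lower in Low Protein than in Saline. Msmo1 fell by 0.25 in Low Protein and by 0.24 in MAM, and Sc5d fell by 0.22 and by 0.29. In Low Protein the exact permutation test did not pass for Msmo1 (p = 0.0671) or Sc5d (p = 0.0758), and litter 1 alone stood at -0.09 and -0.04. In MAM it passed for both (exact permutation p = 0.013 and 0.00433). Against Poly I:C the MAM levels fell by 0.23 for Msmo1 and by 0.27 for Sc5d. The Msmo1 call there held under 28 of 42 alternatives, with values of -0.37 to -0.08. The Sc5d call held under 39 of 42, with values of -0.37 to -0.16. Mvd, mevalonate diphosphate decarboxylase, fell by 0.22 in Low Protein (exact permutation p = 0.013) and was at -0.07 in MAM. The Low Protein litters of Mvd stood at -0.14 and -0.29, and its limma call was lost without litter 2. Tm7sf2, a sterol reductase, fell by 0.20 in MAM by limma, where the exact permutation test did not pass (p = 0.0714), and its MAM litters stood at -0.10 and -0.30. Whether the Low Protein and MAM differences of these genes differ from each other was not tested.

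In the fit of genes with a mean above 0.1, all 13 enzymes could be tested. In Low Protein 4 of 13 were lower and in MAM 5 of 13, with Nsdhl, a sterol dehydrogenase, added in MAM at -0.27. Of all genes in that fit, 4.75% were lower in Low Protein and 8.21% in MAM. Poly I:C had 0 of 13 beside 5.52% and MAM against Poly I:C had 3 of 13 beside 17.5%. In Low Protein litter 2, 12 of the 13 enzymes had a lower mean than in litter 1, with median log2 differences from Saline of -0.24 in litter 2 and -0.03 in litter 1. The share of all genes with a lower litter 2 mean was not computed. Every litter 1 pup was above every litter 2 pup for 17.6% of all genes, so the litters differed beyond these enzymes.

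**Figure D5:**
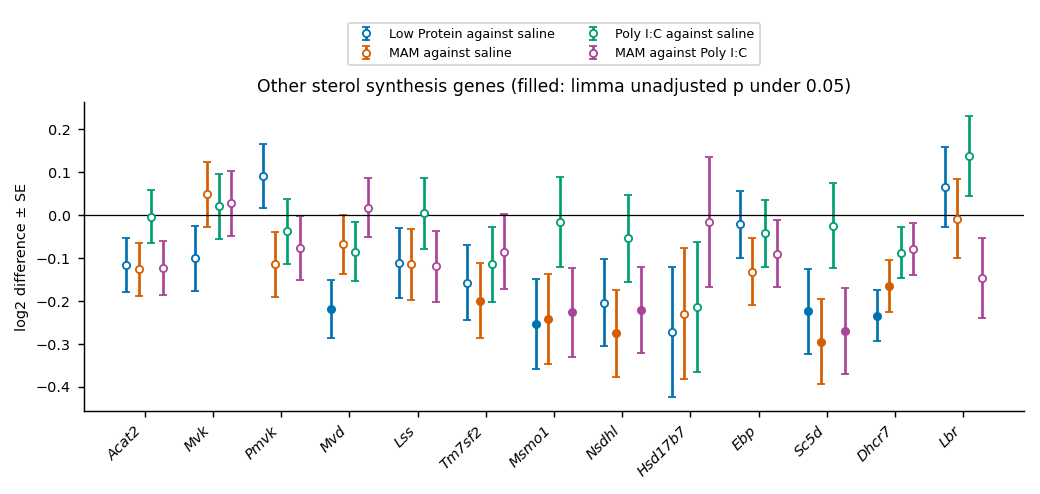
Log2 difference of group means ± SE (vertical axis) for 13 other sterol synthesis genes (horizontal axis) in the 4 comparisons, with filled points where the limma unadjusted p was under 0.05. The lowest filled point is Sc5d in MAM, -0.29, and no Poly I:C point against Saline is filled.

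Among the genes that control the series and carry sterol in and out of cells, 18 were listed. Of these, 7 had a mean above 1 and 0 of 7 were called in any comparison (limma, unadjusted). In the wider fit 0 of 16 were called in Low Protein and in MAM, 1 of 16 was lower in Poly I:C, beside 5.52% of all genes, and 3 of 16 were lower in MAM than in Poly I:C, beside 17.5%. Srebf2 itself was at -0.13 in MAM, -0.07 in Low Protein pups and 0.00 in Poly I:C against Saline, and none of these passed. Srebf1, which drives fatty acid genes, was at 0.12 in MAM and at -0.08 in each of the other groups.

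Insig2, the paralogue of Insig1 that is not driven by SREBP2, was at -0.11 in MAM, 0.14 in Low Protein pups and 0.18 in Poly I:C against Saline. MAM was lower than Poly I:C by a log2 difference of -0.29 (exact permutation p = 0.0519), a limma call that held under 17 of 42 alternatives, with values of -0.37 to -0.06. The 2 other genes called there were the sterol carrier gene Stard4 at -0.32 and Npc1, the lysosomal cholesterol exporter, at -0.23. Neither held after adjustment (limma adjusted p = 0.141 and 0.118), and 3 of 16 called is near the 17.5% share of all genes. Cyp46a1, which turns brain cholesterol into an exported oxysterol, fell by 0.39 in Poly I:C, and the call was lost without Poly I:C litter 2 (-0.09) and without Saline litter 2 (-0.33).

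Fatty acid synthesis genes were few in the stricter fit. Of 4 tested, 1 was lower in MAM, beside 8.18% of all genes, and 2 were lower in MAM than in Poly I:C, beside 17.1%. Scd2, the main stearoyl-CoA desaturase of brain, fell by 0.26 in MAM, and Scd2 and Fads1 were lower in MAM than in Poly I:C, at -0.32 and -0.19. In the wider fit 2 of 10 were lower in Low Protein, beside 4.75% of all genes, 3 of 10 in MAM, beside 8.21%, 1 of 10 in Poly I:C, beside 5.52%, and 3 of 10 in MAM against Poly I:C, beside 17.5%. Scd fell by 0.46 in Low Protein and by 0.41 in MAM, and MAM was lower than Poly I:C by a log2 difference of -0.36. In Low Protein it was at -0.17 in litter 1 and -0.74 in litter 2, and the call was lost without litter 2 and without Saline litter 1 (-0.32). Acss2, the cytosolic acetyl-CoA synthetase, fell by 0.17 in MAM, by 0.21 in Low Protein and by 0.15 in Poly I:C. None of these fatty acid calls held after adjustment (limma adjusted p of 0.0672 to 0.529).

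Ketone body genes make or use acetoacetate, the substrate of Aacs. In the wider fit 0 of 6 were called in Low Protein, beside 4.75% lower among all genes. In MAM 1 of 6 was lower, beside 8.21% of all genes, and 2 of 6 were lower in Poly I:C, beside 5.52%. Acat1, the mitochondrial thiolase, ran from 1.54 to 1.9 (median 1.78) in Poly I:C and from 1.89 to 2.17 (median 2.09) in Saline. It fell by 0.26 in Poly I:C (limma adjusted p = 0.16) and was at 0.10 in Low Protein and 0.00 in MAM. It was higher in MAM than in Poly I:C by 0.26 (limma adjusted p = 0.017), the only adjusted call in the pathway lists. Bdh1 fell by 0.19 in Poly I:C and Oxct1 by 0.17 in MAM (limma, unadjusted). In the isoprenoid branch, which draws on farnesyl diphosphate, 0 of 3 were called against Saline in the stricter fit. In that fit 2 of 3 were lower in MAM than in Poly I:C, beside 17.1% of all genes. In the wider fit 0 of 7 were called against Saline, and 2 of 7 were lower in MAM than in Poly I:C, beside 17.5%. The 2 genes in each fit were Fnta at -0.18 and Nus1 at -0.21.

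Promoter sequence was available for 6 of the 8 genes, Aacs, Hmgcs1, Idi1, Fdps, Cyp51 and Insig1, as RefSeq windows of 250 bases before to 50 after the start (build GRCr8, a later build than that of the files). They are shown because most of these genes varied together. SREBP2 is known to act beside the factor NF-Y, which binds the CCAAT box. CCAAT was found on either strand in 4 of 6, against 37.5% of 33465 rat promoters, with 2 matches each in Hmgcs1, Fdps and Idi1, 1 in Insig1 and 0 in Cyp51 and Aacs. GGGCGG, the core of the GC box, was in 4 of 6 against 33.1%, and was absent from Aacs and Idi1. The SREBP element spellings TCACNCCAC and CACCCCAC, which overlap each other in part, were in 0 of 6, against 1.12% and 2.7% of all promoters. The letters are a description of these windows. The 7 CCAAT matches are printed 5′ to 3′ on the gene's strand, with the box, or its reverse complement, in capitals:
Hmgcs1 (chr2:53382104-53382132, plus strand): cattttcctcccATTGGcagagagtgggt
Hmgcs1 (chr2:53382159-53382187, plus strand): ctgagtccggtgATTGGctgagatagctg
Fdps (chr2:176804930-176804958, minus strand): cgccaccctttcATTGGccagtcgtcaca
Fdps (chr2:176804885-176804913, minus strand): gaggtcattcagCCAATcagcgaactcgg
Insig1 (chr4:8057946-8057974, minus strand): cgccctcctcccATTGGctcccgcggcct
Idi1 (chr17:66547574-66547602, minus strand): tgcctccagctgATTGGtgagcccgggca
Idi1 (chr17:66547543-66547571, minus strand): gtcgaagatgccATTGGctggcgaccgac

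Of 12 other sterol synthesis genes with a promoter sequence, 10 held CCAAT and 11 held GGGCGG, against 37.5% and 33.1% of all promoters. TCACNCCAC was in 0 of these 12 and CACCCCAC in 1. Whether the boxes have a part in the shared variation of the sterol genes was not tested.

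Markers of neurons and of some other cell types also varied with the sterol genes. Over the 24 pups, within groups, the mean of the 7 sterol genes had r = 0.614 with 5 neuron markers, -0.651 with 5 microglia markers and -0.615 with the 4 meninges markers above the limit. The Spearman rho was 0.73 with neuron, -0.458 with microglia and -0.391 with meninges markers. With 79 ribosomal protein genes r was -0.293. Summed microglia markers ran from 8.72 to 10.1 in Saline, 9.86 to 12.9 in MAM, 6.82 to 16.0 in Low Protein pups and 8.12 to 12.1 in Poly I:C. Summed meninges markers, 5 of 5 listed, ran from 6.69 to 12.0 in Saline, 5.79 to 14.4 in MAM, 3.33 to 31.3 in Low Protein pups and 5.77 to 15.6 in Poly I:C, with none at 0 in all pups. The highest, 31.3, was Low Protein 2.2, the pup with the lowest sterol mean, and the 2 other pups of that litter averaged -0.33 on the sterol mean. Neuron markers summed to 278 to 317 in Saline, 276 to 315 in MAM, 256 to 309 in Low Protein pups and 251 to 294 in Poly I:C. The mean log2 level of the neuron markers, set against Saline, was -0.13 in MAM. It was -0.08 with Poly I:C and -0.09 for Low Protein pups, where litter 1 stood at -0.03 and litter 2 at -0.15. The SD of this level within groups was 0.132. Without pup Low Protein 2.2 r was 0.622 with neuron, -0.529 with microglia and -0.451 with meninges markers.

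Aacs had r = 0.593 with 5 ganglionic eminence markers, 0.576 with 5 oligodendrocyte lineage markers and -0.506 with 79 ribosomal protein genes. Ganglionic eminence markers summed to 43.2 to 85.1 in Saline, 40.2 to 54.7 in MAM, 37.4 to 52.1 in Low Protein pups and 43.2 to 60.6 in Poly I:C, and their mean log2 level against Saline was -0.25 in MAM, -0.38 in Low Protein pups and -0.18 in Poly I:C. The ribosomal protein mean was at 0.11 in MAM, 0.16 in Low Protein pups and 0.03 in Poly I:C against Saline. Estimated depth had r = -0.226 with the sterol mean and -0.207 with Aacs. The part of these markers in the differences of Aacs and the sterol genes was not tested.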

How the data were processed

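RNA from 24 pups was sequenced as paired reads by the authors, trimmed and quantified in Partek Flow after alignment with STAR 2.4.1d to the rat genome rn6. The deposited values are TPM made by the authors with an offset of 0.0001, and they sum to 70350.1 in each pup. They behaved as reads per genomic span: 46.4 to 54% of low values were within 0.05 of a whole multiple of a per-pup step, against 10% for an even spread, and this step gave the estimated depth. Levels are therefore compared between pups, not between genes.

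Values were taken as log2 of the deposited TPM and fitted with limma 3.58.1 (R 4.3.3) on all 24 pups with group as the only factor. The fit held the 5086 genes with a mean above 1 in each of 4 groups, and a wider fit the 9713 with a mean above 0.1, which Aacs needed. Genes were called at an unadjusted p under 0.05, with Benjamini-Hochberg adjustment beside it. The study used that threshold alone for MAM and added a minimum fold change for Poly I:C and Low Protein, which was not applied here. Single genes that were not among the 8 were also put to a two-sided exact permutation test of 6 against 6 pups. The pup was the replicate, and litter was read from the pup number. p-values measure the spread between pups and not between dams.

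The 8 genes, the pathway and marker lists and the alternatives were chosen with earlier results of these data known. Named were all 8 genes, pathway genes called in any comparison, and Dhcr7, Srebf2, Srebf1 and Insig2 whatever their values. Some genes of the lists are not reported here and were left out of the lists' counts. The genes most like the 8 were the 10 (5 for Aacs) with the highest Pearson r. The ribosomal protein genes, 79 by symbol, were added after values were seen. The fit was tested on simulated data.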

Additional observations from a re-analysis of the deposited data

Results flagged for a closer look

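In 36 sets of 6 pups (8 genes and the mean of the 7 sterol genes, in 4 groups), a single pup lay far from the others by Dixon's test (gap over range above 0.625) in 2, where chance gives about 1.8. Fdps in MAM pup 2.1 was 12.2 TPM, with a gap over range of 0.777. Idi1 in Poly I:C pup 1.3 was 8.32 TPM, with 0.688.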

How the results depend on the processing

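The results were recomputed under 42 alternatives, 32 of which left out a pup or a litter. The median difference of the 8 genes stayed below 0 in all 4 comparisons under all alternatives. Over the leave-outs the Low Protein median ranged from -0.4045 (without Low Protein litter 1) to -0.0018 (without litter 2), and without litter 2 Sqle, Idi1, Fdft1 and Cyp51 lay above Saline. The Low Protein count of 4 other sterol enzymes was 2 with litter means, and 0 to 8 over the leave-outs (2 without any single one of Low Protein pups 2.1 and 2.2 and Saline pups 1.2 and 1.3). The MAM count of 4 was 2 with median-of-ratios scaling, 2 with upper-quartile scaling and 1 with litter means, and 1 to 5 over the leave-outs (1 without MAM litter 2, 2 without Saline litter 1). The count of 2 in MAM against Poly I:C was 1 with median-of-ratios scaling, 1 with upper-quartile scaling and 0 with litter means, and 0 to 3 over the leave-outs (1 without any single one of MAM pups 1.3, 2.1 and 2.3, Poly I:C pups 1.1, 1.2 and 2.1, MAM litter 2 and Poly I:C litter 1). The Poly I:C count was 0 under all 42. The cause was not tested, beyond the fewer pups or litters. No named pathway gene called in either fit changed sign under these alternatives. The calls of Acat1, of Scd2 in MAM against Poly I:C and of Acss2 in Low Protein held under all 42, and the other calls of named pathway genes held under 17 (Insig2) to 41, most of the losses coming with a litter or pup left out.

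With the replicate number as a block (replicate block), each count equalled that without it, with 4 for Low Protein and for MAM against Saline, 0 for Poly I:C and 2 for MAM against Poly I:C. The sources used here do not say that the numbers pair the pups. Of 36 same-number pairs of pups 22 had a correlation of their deviations over 0.1, from -0.42 to 0.563. The median was 0.164 for same-number pairs and -0.02 for pairs with other numbers, and 12 of 24 pups correlated best with a pup of their own number. Pups of the same number were thus somewhat more alike across groups, for a reason that was not tested. Depth gave counting errors of at most 2.8% for the 8 genes, and each group held 2 litters.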
